A study of Mus musculus with 10 samples.

Results

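A set of 10 genes for glucose uptake, glucose phosphorylation and their alpha-arrestin regulators was followed across naïve and primed mouse embryonic stem cells (ESCs) and 3 knockout lines. They were the facilitative glucose transporters Slc2a1 (GLUT1), Slc2a3 (GLUT3), Slc2a4 (GLUT4), Slc2a8 (GLUT8) and Slc2a10 (GLUT10), the hexokinases Hk1, Hk2 and Hkdc1, and the arrestin-domain genes Txnip and Arrdc4. Members were chosen by gene symbol, and all 10 were found among the 21853 protein-coding genes of each table. Of these 10, 8 had at least 1 TPM (a transcript level corrected for length and scaled to the library) in at least 2 libraries and were tested. Slc2a10 and Hkdc1 were not.

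Facilitative transporters carry glucose down its gradient, and hexokinases trap it in the cell as glucose 6-phosphate, from which glycolysis, the pentose phosphate pathway and glycogen synthesis all start. Txnip and Arrdc4 are related alpha-arrestins that bring transporters such as GLUT1 in from the cell surface, and Txnip is a known substrate of AMPK, the kinase that senses a low energy state. Transcription of both genes is known to follow glucose supply through the Mondo factors MondoA (Mlxip) and ChREBP (Mlxipl), which pair with Mlx and bind carbohydrate response elements.

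Bulk polyadenylated RNA was sequenced in 10 libraries, 2 from each of 5 lines. Naïve ESCs were wild-type J1 cells on gelatin, by the study's methods in high-glucose DMEM with serum or in N2B27 medium. Both media held LIF and the 2i inhibitors PD0325901 (MEK) and CHIR99021 (GSK3). AKO lacks the AMPKα gene Prkaa1, GKO lacks the muscle-type glycogen synthase gene Gys1 through an indel, and DKO lacks both; all were made in J1. Primed ESCs (PJ1) were wild-type cells on Matrigel in DMEM/F12 with serum replacement or in N2B27 medium, each with bFgf and Activin. Pluripotent state and medium thus cannot be told apart. The methods do not say which medium served these libraries. The sources used here do not say how many clones each knockout line stood for, nor that the 2 libraries of a line came from separate cultures, so p-values measure the spread between these libraries. In bulk RNA, fewer cells with a transcript and less of it per cell cannot be told apart either.

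Protein-coding genes summed to 500162 to 578952 TPM per library. Prkaa1 stood at 15.5 and 16.6 TPM in naïve ESCs, 7.24 and 6.94 in AKO, 2.30 and 2.04 in DKO, 12.16 and 11.96 in GKO, with 13.4 and 13.7 in primed ESCs. Its transcript was thus lower in DKO than in AKO, and its paralogue Prkaa2 remained at 2.39 to 3.29 TPM in the 8 libraries grown in 2i. Gys1 was at 9.70 and 9.98 TPM in GKO and 12.1 and 11.7 in DKO, against 11.5 and 10.8 in naïve ESCs, and an indel need not lower its transcript. All 12 naïve pluripotency markers fell in primed ESCs, and 7 of 9 tested primed markers rose. The other 2, T and Nodal, fell. In primed libraries 1 and 2, T stood at 8.97 and 0.786 TPM and Nodal at 29.2 and 6.02. Fgf5, which was not tested, stood at 10.7 and 0.447 TPM there. The 2 primed libraries differed most, with a standard deviation of 0.269 on the log2 scale between them over all tested genes, against 0.129 to 0.145 in the other lines. The primitive endoderm markers Gata4, Gata6, Sox17, Pdgfra, Foxa2 and Dab2 summed to 8.87 TPM in primed library 1 and 2.80 in primed library 2, against 1.17 to 2.22 elsewhere.

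The 200 bases before the RefSeq start sites of both arrestin genes are shown because that of Txnip holds a carbohydrate response element, while that of Arrdc4 holds the letters of an E-box and no such element. The sequences come from the RefSeq promoter table (GRCm38.p6) and each matched GRCm39 once. Txnip lies on the plus strand of chromosome 3 and its stretch is chr3:96465073-96465272. Arrdc4 lies on the minus strand of chromosome 7 and its stretch is chr7:68398987-68399186, written 5′ to 3′ along the gene. Capitals mark a carbohydrate response element in Txnip and an E-box in Arrdc4.
Txnip: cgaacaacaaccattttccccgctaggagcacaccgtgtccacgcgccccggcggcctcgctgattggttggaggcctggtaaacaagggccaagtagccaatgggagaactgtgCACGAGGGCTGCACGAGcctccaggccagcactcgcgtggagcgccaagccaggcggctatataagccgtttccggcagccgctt
Arrdc4: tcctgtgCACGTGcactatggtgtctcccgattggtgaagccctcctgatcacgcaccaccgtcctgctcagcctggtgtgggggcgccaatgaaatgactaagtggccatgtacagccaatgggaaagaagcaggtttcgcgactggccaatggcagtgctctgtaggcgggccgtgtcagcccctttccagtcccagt

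The element was searched as 2 sites, each CACGNG or CNCGTG, separated by 5 bases, and the E-box as CACGTG, over 250 bases before and 50 after each start. Both patterns read the same on either strand, and CACGTG also fits such a site. The element in Txnip ran from -85 to -69 of the start. It was present in 27 of 32851 RefSeq windows (0.0822%). The E-box in Arrdc4 ran from -193 to -188, and an E-box was present in 2349 windows (7.15%). Slc2a1, Slc2a8, Slc2a10, Hk1, Hk2 and Hkdc1 had windows in the table with neither pattern, which says only that these letters were not there. Slc2a3 and Slc2a4 are named only.

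Among the transporters, Slc2a3, the high-affinity carrier of neurons and the early embryo, was the most abundant in the lines grown in 2i. It was higher in both lines that lack Gys1. It measured 377 and 381 TPM in naïve ESCs and 373 and 380.2 in AKO. It reached 496 and 527 TPM in GKO and 548 and 520.0 in DKO. All 4 libraries without Gys1 lay above all 4 libraries with it in 2i. The change against naïve ESCs was 0.43 on the log2 scale of TPM + 1 in GKO (SE 0.11, adjusted p = 0.0113, from limma and adjusted by Benjamini-Hochberg). For DKO it was 0.49 (SE 0.11, adjusted p = 0.00669 by limma). Both comparisons use the same naïve libraries. DKO against AKO, which shares no library with GKO against naïve, gave 0.50 (adjusted p = 0.00622 by limma), though these lines also differed in Prkaa1 (-1.35). GKO and DKO also had a lower median over the tested genes of chromosome 15, at -0.15 and -0.16 against naïve ESCs, with 0.03 in AKO. Whether GKO and DKO share more than the loss of Gys1 was not tested. GKO and DKO differed by -0.06 (95% CI -0.32 to 0.20), and their libraries overlapped. The rise in GKO missed the threshold without naïve library 1 (0.43, adjusted p = 0.0558) or GKO library 2 (0.39, adjusted p = 0.0685) in limma, while that in DKO passed in every alternative. Slc2a3 lies on chromosome 6, whose tested genes had a median change of 0.14 in GKO and -0.01 in DKO, against -0.01 over all genes in each, and the part of that shift in the GKO value was not tested.

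Primed ESCs held 385 and 517 TPM of Slc2a3, the first close to naïve ESCs and the second within the range of the Gys1 knockouts. The difference from naïve ESCs was 0.24 (95% CI -0.02 to 0.49, adjusted p = 0.0812 by limma). It turned on the primed library: without library 1 it was 0.45 (adjusted p = 0.000115 by limma). With quantile normalization it was also 0.45 (adjusted p = 0.0108).

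Slc2a1, the widely expressed basal glucose carrier, was the transporter with the widest range in TPM. It stood at 108 and 107 TPM in naïve ESCs, 109 and 97.1 in AKO, 112 and 120.4 in GKO, and 99.4 and 99.6 in DKO. Primed ESCs held 381 and 710.2 TPM, above every other library, and the second primed library had 1.86 times the level of the first. On the ratio of mean TPM, primed ESCs held 5.07 times the naïve level. The log2 difference was 2.26 (SE 0.22, adjusted p = 1.12e-05, limma), and 1.82 or 2.71 with primed library 2 or 1 left out. The knockouts did not pass the test for Slc2a1, with 0.11 in GKO (95% CI -0.39 to 0.62), -0.11 in DKO (-0.62 to 0.39) and -0.06 in AKO (-0.57 to 0.44). The primed libraries, with the widest spread, enter the same fit and so widen these intervals. With only the libraries compared in the fit, the DKO value passed (adjusted p = 0.0312 by limma). Without the primed libraries, an alternative chosen after seeing the data, GKO exceeded DKO by 0.22 with an adjusted p of 0.0109 (limma).

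**Figure D1:**
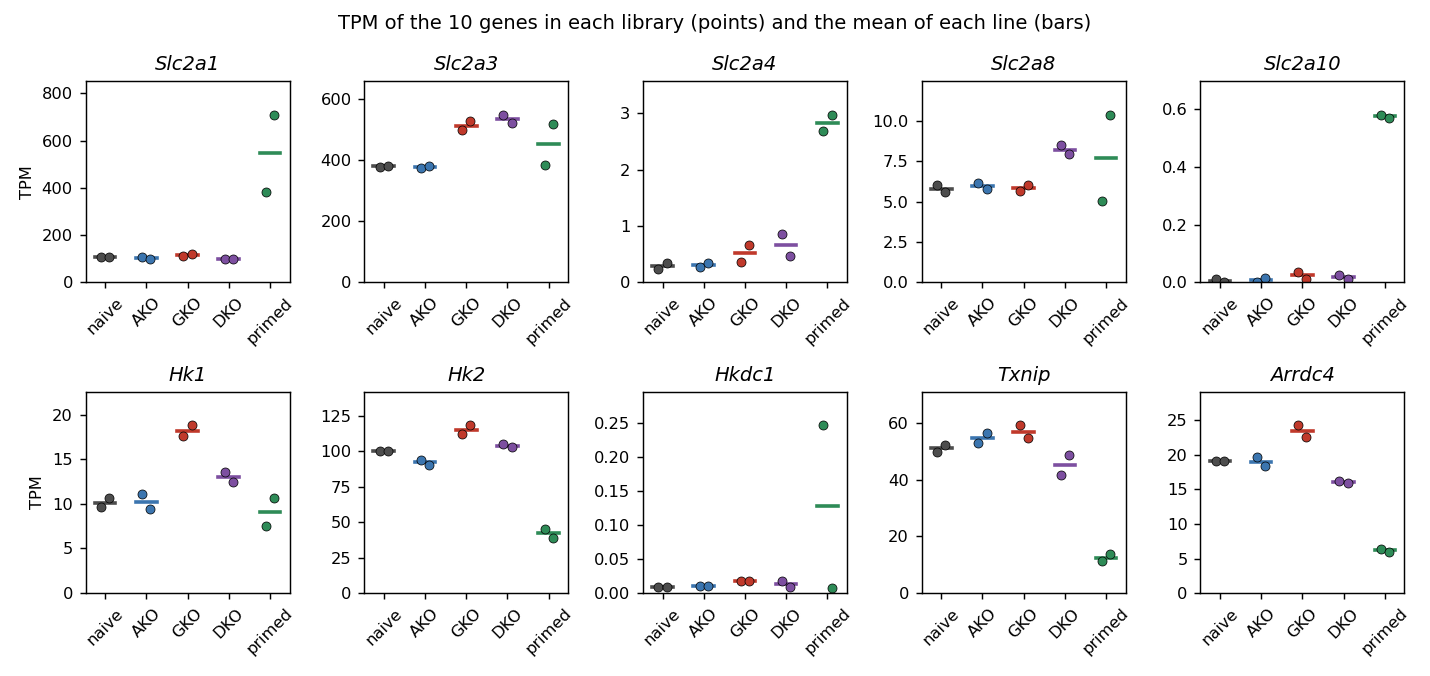
TPM of each of the 10 genes (vertical axis, starting at 0, a separate scale per gene) in the 2 libraries of each line (points), with the mean of the line as a bar. Primed ESCs stand above the other lines for Slc2a1, Slc2a4 and Slc2a10 and below them for Hk2, Txnip and Arrdc4, while the points of Slc2a3 and Hk1 lie higher in GKO and DKO than in naïve ESCs.

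The make-up of the transporter pool was measured as each gene's share of it. Slc2a3 gave 76.6% ± 0.23 (SD, n = 2) of the summed TPM of all SLC2 family genes in naïve ESCs, 77.2% ± 1.6 in AKO, 80.5% ± 0.085 in GKO and 82.8% ± 0.46 in DKO. Slc2a1 gave 21.8% ± 0.16, 21.1% ± 1.6, 18.3% ± 0.057 and 15.4% ± 0.50 in the same lines. In primed ESCs Slc2a1 gave 53.0% ± 5.7 and Slc2a3 45.5% ± 5.6. The primed libraries thus had Slc2a1 to Slc2a3 ratios of 0.991 and 1.37, against 0.181 to 0.292 in the other 8 libraries, with the lowest ratios in DKO. The summed family level was 495 ± 2.3 TPM in naïve ESCs, 488 ± 3.8 in AKO, 636 ± 28 in GKO, 645 ± 20 in DKO and 1013 ± 331 in primed ESCs. With 2 libraries against 2, an exact two-sided permutation test of a share cannot go below p = 0.333.

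**Figure D2:**
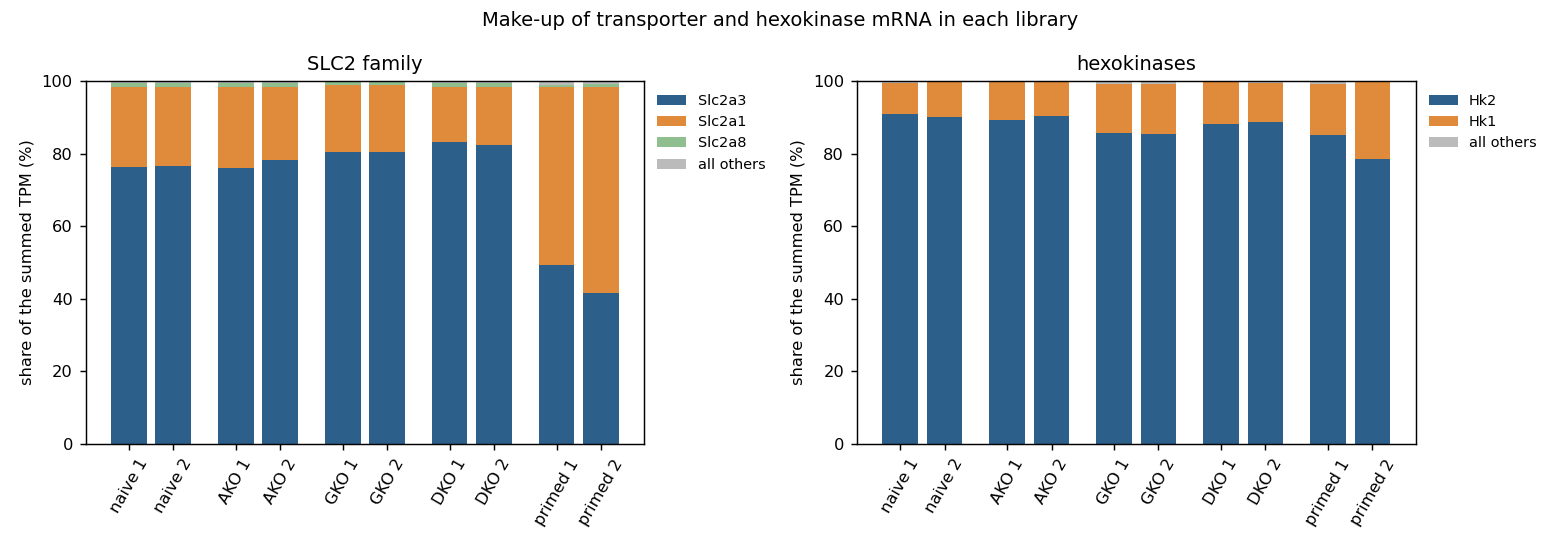
Share of the summed TPM (vertical axis, percent) of the SLC2 family (left) and of the hexokinases (right) taken by each gene in each library. Slc2a3 leads in all 8 libraries grown in 2i, the 2 genes are nearly even in primed library 1 and Slc2a1 leads in primed library 2, and Hk2 is the main hexokinase in every library.

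Slc2a8, an intracellular transporter, was low and was highest in DKO among the lines grown in 2i. Its level was 6.03 and 5.61 TPM in naïve ESCs, 6.14 and 5.79 in AKO, 5.69 and 6.02 in GKO, and 8.50 and 7.97 in DKO. The libraries of naïve ESCs, AKO and GKO interleaved, and both DKO libraries were above them. Primed ESCs gave 5.02 and 10.4 TPM, the lowest and the highest of the 10 libraries. DKO differed from naïve ESCs by 0.44 (SE 0.23, 95% CI -0.09 to 0.96, adjusted p = 0.154, limma) in the fit of all libraries. The same difference had an adjusted p of 0.000988 without the primed libraries (limma). GKO against DKO was -0.43, with adjusted p = 0.164 and 0.00121 in turn. The primed difference from naïve ESCs was 0.28 (adjusted p = 0.284 by limma), but 0.74 without primed library 1 and -0.18 without primed library 2.

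Slc2a4, the insulin-responsive carrier of muscle and fat, was below 1 TPM in every library grown in 2i. The values were 0.231 and 0.335 TPM in naïve ESCs, 0.265 and 0.349 in AKO, 0.370 and 0.666 in GKO, and 0.854 and 0.461 in DKO. Primed ESCs gave 2.68 and 2.98 TPM. It entered the test only through the primed libraries, so its difference from naïve ESCs of 1.58 (SE 0.13) is a description. Of 7 muscle and fat markers, Fabp4 was listed at 0 in all libraries and Myog, Ckm and Adipoq at 0 in both primed libraries, and the 7 summed to 0.180 to 0.440 TPM in 2i and 1.39 and 1.63 TPM in primed ESCs, nearly all of it Acta1. Slc2a10, a transporter of intracellular membranes, gave 0.580 and 0.568 TPM in primed ESCs and at most 0.0370 TPM elsewhere, where 2 libraries listed it at 0.

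Hk1, the broadly expressed hexokinase of the outer mitochondrial membrane, had the largest change on the log2(TPM + 1) scale of the 8 tested members in GKO. It stood at 9.67 and 10.6 TPM in naïve ESCs, 11.1 and 9.38 in AKO, 17.6 and 18.8 in GKO, 13.6 and 12.5 in DKO, and 7.50 and 10.6 in primed ESCs. GKO stood above every other library, DKO came next, and naïve, AKO and primed libraries overlapped. The rise in GKO was 0.78 (SE 0.14, adjusted p = 0.00154, limma) and passed in every alternative. Of all genes tested, 7.42% had a larger absolute change in that comparison. In DKO it was 0.33 (SE 0.14, adjusted p = 0.0797 by limma), and adjusted p = 0.0122 without the primed libraries. GKO exceeded DKO by 0.45 (SE 0.14, adjusted p = 0.028 by limma), a call lost without any one of the 4 libraries of GKO and DKO (0.39 to 0.51, adjusted p from 0.0651 to 0.140). The primed difference from naïve ESCs was -0.16 (adjusted p = 0.298 by limma), and -0.39 without primed library 2 (adjusted p = 0.00948).

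Hk2, the inducible hexokinase of proliferating cells, was the main one in every line. It was listed at 99.998 and 100.1 TPM in naïve ESCs, 94.3 and 90.7 in AKO, 112 and 118 in GKO, and 105 and 103 in DKO, and it dropped to 45.3 and 39.2 in primed ESCs. No library of any line overlapped with those of naïve ESCs. The fall in primed ESCs was -1.23 (SE 0.07, adjusted p = 1.8e-07, limma), and primed ESCs held 0.423 times the naïve mean TPM. The rise in GKO was 0.20 (SE 0.07, adjusted p = 0.0286), and it was lost without naïve library 1 (adjusted p = 0.105), naïve library 2 (0.102), GKO library 1 (0.0508) or GKO library 2 (0.152) in limma. Hk2 also lies on chromosome 6, whose genes had a median change of 0.14 in GKO and -0.39 in primed ESCs. The changes in DKO and AKO, 0.06 (95% CI -0.09 to 0.20) and -0.11 (-0.26 to 0.04), did not pass.

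Hkdc1, a hexokinase-domain gene beside Hk1 on chromosome 10, was listed at 0.008 to 0.018 TPM in 9 libraries and at 0.247 TPM in primed library 1. Together the hexokinase genes summed to 111 ± 0.78 TPM (SD, n = 2) in naïve ESCs, 103 ± 3.8 in AKO, 135 ± 5.4 in GKO, 118 ± 2.4 in DKO and 51.6 ± 2.4 in primed ESCs. Hk1 made up 9.17% ± 0.55 of this in naïve ESCs, 9.93% ± 0.82 in AKO, 11.1% ± 0.45 in DKO, 13.5% ± 0.11 in GKO and 17.7% ± 5.1 in primed ESCs. Hk2 gave 6.39 and 6.30 times as much TPM as Hk1 in GKO, against 10.3 and 9.42 times in naïve ESCs.

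Of the arrestin genes, Arrdc4 rose in GKO and fell in DKO. It stood at 19.2 and 19.1 TPM in naïve ESCs, 19.7 and 18.4 in AKO, 24.3 and 22.5 in GKO, 16.2 and 15.9 in DKO, and 6.36 and 6.02 in primed ESCs. Naïve and AKO libraries overlapped, both GKO libraries were above them and both DKO libraries below them. The rise in GKO was 0.28 (SE 0.06, adjusted p = 0.00474, limma) and the fall in DKO -0.24 (SE 0.06, adjusted p = 0.0104). GKO exceeded DKO by 0.52 (SE 0.06, adjusted p = 0.000221 by limma). The rise in GKO and the difference between GKO and DKO passed in every alternative. The fall in DKO was lost without naïve library 1 (-0.24, adjusted p = 0.0565), naïve library 2 (-0.24, 0.0542) or DKO library 2 (-0.23, 0.056) in limma. Against AKO, DKO was lower by -0.23 (adjusted p = 0.0124), a call lost without AKO library 1 (-0.18, adjusted p = 0.0918) or DKO library 2 (-0.22, 0.0635).

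Txnip measured 49.8 and 52.5 TPM in naïve ESCs, 53.1 and 56.5 in AKO, 59.3 and 54.9 in GKO, and 41.8 and 48.7 in DKO. GKO and AKO libraries overlapped with each other above naïve ESCs, and DKO was lowest of the lines in 2i. Neither GKO, at 0.16 (95% CI -0.06 to 0.37, adjusted p = 0.195 by limma), nor DKO, at -0.18 (-0.39 to 0.04, adjusted p = 0.156), passed against naïve ESCs. With only the libraries compared in the fit, GKO passed (adjusted p = 0.0472 by limma). GKO exceeded DKO by 0.33 (SE 0.09, adjusted p = 0.0195, limma), which missed the threshold without DKO library 1 (0.22, adjusted p = 0.133) or GKO library 1 (0.28, adjusted p = 0.12). DKO was below AKO by -0.27 (adjusted p = 0.0392 by limma), which missed the threshold without AKO library 1 (-0.32, adjusted p = 0.0767), AKO library 2 (-0.23, 0.183) or DKO library 1 (-0.17, 0.248). It also missed the threshold with quantile normalization (-0.19, adjusted p = 0.116), without a filter on low values (0.0751) and with no intensity trend (0.0546) in limma.

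In primed ESCs both arrestin genes were at their lowest. Txnip fell to 11.5 and 13.7 TPM, 0.246 times the naïve mean, and Arrdc4 to 0.323 times. On the log2 scale these were -1.95 (SE 0.09, adjusted p = 9.38e-08) and -1.49 (SE 0.06, adjusted p = 3.08e-08) in limma, and both passed in every alternative. Txnip was 2.43 to 3.08 times as abundant as Arrdc4 in the lines in 2i and 1.80 and 2.27 times in the primed libraries. The primed libraries, highest of all for Slc2a1, were thus the lowest for Hk2 and for both arrestin transcripts.

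**Figure D3:**
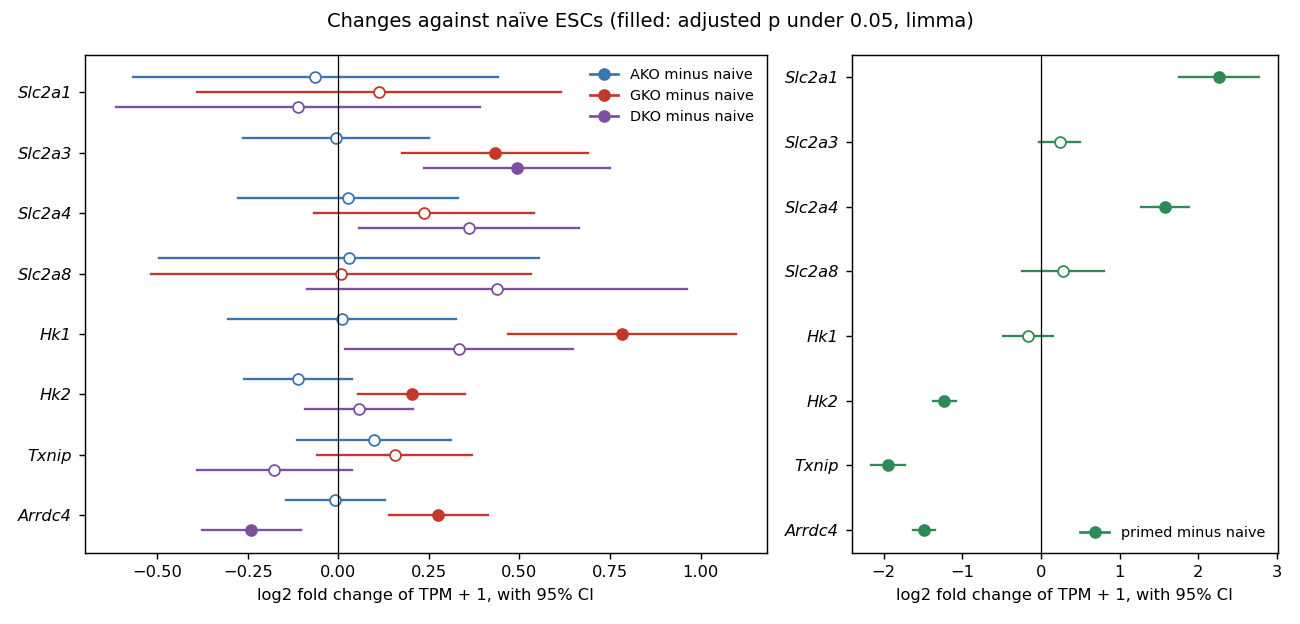
Log2 fold change of TPM + 1 with its 95% confidence interval (horizontal axis) for the 8 tested genes in AKO, GKO and DKO (left) and in primed ESCs (right), each against the same naïve libraries. Filled points passed an adjusted p of 0.05 in limma. Hk1 has the largest change of the 8 in GKO (0.78), Arrdc4 lies on opposite sides of 0 in GKO and DKO, and Txnip falls furthest in primed ESCs (-1.95).

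Counted over the tested members, 4 of 8 were called in GKO against naïve ESCs, all higher, where 51.7% of all tested genes were called and 24.7% were higher. In DKO 2 of 8 were called, Slc2a3 higher and Arrdc4 lower, against 46.0% of all genes (21.7% higher and 24.3% lower). In primed ESCs 5 of 8 were called, 2 higher (Slc2a4 among them, tested only because of its primed level) and 3 lower, against 80.0% of all genes (37.4% higher and 42.5% lower), so that a call in that comparison was the common outcome. In AKO 0 of 8 were called, against 0.224% of all genes in limma, and 0 of 8 had an unadjusted p under 0.05. GKO and DKO differed in 3 of 8, Hk1, Txnip and Arrdc4, all higher in GKO, against 43.5% of all genes (21.2% higher). DKO and AKO differed in 3 of 8, with Slc2a3 higher and Txnip and Arrdc4 lower, against 46.3% (22.4% higher and 23.9% lower). No share of members called was read as a result about the members. The median change over the 8 was 0.22 in GKO, 0.19 in DKO, 0.00 in AKO and 0.04 in primed ESCs, against -0.01, -0.01, -0.01 and -0.05 over all tested genes. In GKO the trophectoderm markers summed to 47.8 and 48.7 TPM against 29.9 and 30.0 in naïve ESCs, with Cdx2 and Tfap2c risen of 3 tested. Most of this was Tfap2c, at 23.2 and 24.3 TPM in GKO against 6.68 and 6.29 in naïve ESCs. Cdx2 stood at 6.62 and 7.27 TPM in GKO and alike in DKO, at 6.73 and 6.86. Eomes was not called and lay lower in GKO, at 17.7 and 17.0 TPM against 19.8 and 20.3 in naïve ESCs. Of 9 tested primed markers 3 rose and 1 fell in GKO, and of 12 naïve markers 6 rose and 1 fell. In DKO 2 of the 9 primed markers rose and 4 fell, and 6 of the 12 naïve markers rose and 0 fell. Between GKO and DKO, 6 of the 9 primed markers were higher in GKO and 1 was lower. The part of these shifts in the values of GKO and DKO was not tested.

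Whether GKO differed from naïve ESCs as DKO differed from AKO was asked by an interaction, the change in GKO against naïve minus that in DKO against AKO. The lines of the second difference also differed in Prkaa1, which AKO still held at 7.24 and 6.94 TPM and which was lower in DKO by -1.35 (adjusted p = 3.39e-06 by limma). For Arrdc4 these changes were 0.28 and -0.23, and the interaction was 0.51 (SE 0.09, adjusted p = 0.00331, limma), called in every alternative. For Txnip they were 0.16 and -0.27, with an interaction of 0.43 (SE 0.13, adjusted p = 0.043). The Txnip call was lost without a filter on low values (adjusted p = 0.0831), with no intensity trend (0.0602) and without 7 of the 8 libraries in turn (0.32 to 0.49, adjusted p up to 0.138); only without DKO library 2 did it hold. For Hk1 the interaction was 0.46 (95% CI 0.01 to 0.91, adjusted p = 0.118), and adjusted p = 0.021 in limma without the primed libraries. Slc2a8 had -0.40 (95% CI -1.14 to 0.34, adjusted p = 0.405), and adjusted p = 0.014 without them. Slc2a3 had -0.07 (95% CI -0.43 to 0.29), Hk2 0.03 (-0.18 to 0.24) and Slc2a1 0.16 (-0.55 to 0.87), none of which passed. The interaction was called for 25.8% of all tested genes and for 2 of the 8 members.

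**Figure D4:**
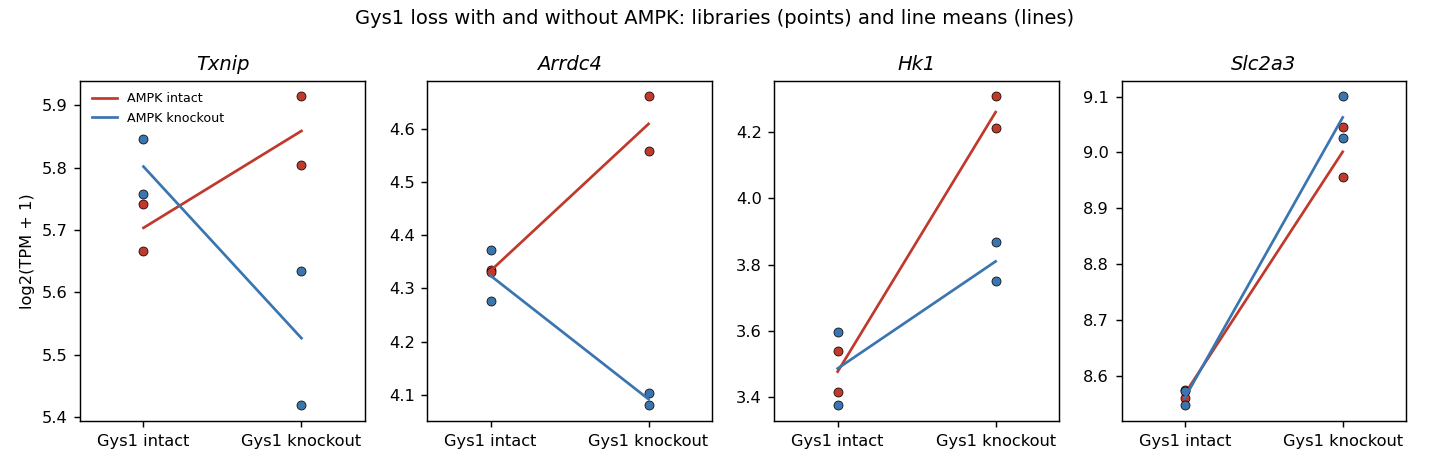
Levels of Txnip, Arrdc4, Hk1 and Slc2a3 as log2(TPM + 1) (vertical axis, not starting at 0 and with a separate scale per gene) with Gys1 intact or knocked out. Red joins naïve ESCs and GKO, blue joins AKO and DKO, points are libraries and lines join means. The lines cross or part for Txnip and Arrdc4 and run nearly alike for Slc2a3.

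The remaining genes of the pathway were taken as 7 lists, of which 75 genes were tested. In AKO 0 of the 75 were called in limma and 7 had an unadjusted p under 0.05. The counts of the lists stand beside the 51.7% of all genes called in GKO, 46.0% in DKO and 80.0% in primed ESCs given above, and nothing particular to a list was read from them. Slc2a6, Arrb1, Irs1 and Rgs16 reached 1 TPM in the primed libraries only and Slc5a1 in those of DKO only, and their calls support nothing though the counts and medians include them. Among other glucose transporters 5 of 15 were tested, Slc2a5, Slc2a6, Slc5a1, Slc5a11 and Slc50a1, the first 4 of which are named outside the rule for named genes, after their values were seen. All 5 were called in GKO, 3 higher and 2 lower, with Slc2a6 at 0.140 and 0.255 TPM. The sodium-coupled carrier Slc5a1 ran at 0.413 and 0.417 TPM in naïve ESCs, against 0.729 and 0.658 in GKO and 2.56 and 2.37 in DKO. Slc5a11, a sodium-coupled inositol carrier, was listed at 0.310 and 0.370 TPM in naïve ESCs, against 1.58 and 2.02 in GKO and 3.27 and 3.54 in DKO. The differences of DKO from naïve ESCs were 1.29 and 1.72, given as a description because Slc5a1 entered the test only through DKO and Slc5a11 only through GKO and DKO. Both stood far below the levels of Slc2a3 and Slc2a1. Slc50a1, a sugar efflux carrier, fell in GKO by -0.37 (adjusted p = 0.0134 by limma). Slc2a6 was at 0.0230 TPM in both naïve libraries and at 3.07 and 3.26 in the primed ones.

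Of the genes that add or remove phosphate on glucose, 4 of 9 were tested. G6pc3, a glucose 6-phosphatase of most tissues, measured 13.3 and 13.1 TPM in naïve ESCs, 16.0 and 16.1 in GKO, 8.98 and 10.5 in DKO and 39.3 and 43.2 in primed ESCs. It rose in GKO (0.26), fell in DKO (-0.41) and rose in primed ESCs (1.57). Adpgk, an ADP-dependent glucokinase, fell in GKO (-0.26), DKO (-0.26) and primed ESCs (-0.41). Slc37a4, the glucose 6-phosphate carrier of the endoplasmic reticulum, rose in primed ESCs (0.63).

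Further down, 13 of 13 genes that use glucose 6-phosphate were tested. In GKO 3 rose and 3 fell, in DKO 3 rose and 2 fell, and in primed ESCs 5 rose and 6 fell. Pfkl, a liver-type phosphofructokinase, rose in GKO (0.53), DKO (0.67) and primed ESCs (2.17). The muscle-type enzyme Pfkm rose in DKO (0.84), and the regulatory Pfkfb1 rose in GKO (0.98). G6pdx, the entry enzyme of the pentose phosphate pathway, fell in GKO (-0.56) and DKO (-0.39). The phosphoglucomutase gene Pgm1, whose enzyme links glucose 6-phosphate to glycogen, rose in primed ESCs (3.98), where Tigar, a phosphatase that slows glycolysis, fell (-1.96).

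Among the arrestins and thioredoxin partners of Txnip, 12 of 14 were tested, and 3 rose and 4 fell in GKO, 1 rose and 4 fell in DKO, and 5 rose and 4 fell in primed ESCs. Ddit4, a stress-induced inhibitor of mTORC1 that binds Txnip, stood at 8.54 and 6.78 TPM in naïve ESCs, 13.8 and 16.9 in GKO, 24.9 and 27.6 in DKO, and 82.0 and 147 in primed ESCs. It rose in GKO (0.92, adjusted p = 0.0138 by limma), DKO (1.66) and primed ESCs (3.68). The mitochondrial thioredoxin Txn2 fell in GKO (-0.62) and DKO (-0.51), and the reductase Txnrd3 rose in GKO (0.54). The beta-arrestin Arrb2 fell in DKO (-0.64), and in primed ESCs the alpha-arrestin Arrdc2 fell (-0.98). The other beta-arrestin, Arrb1, was at 0.315 to 0.812 TPM in the lines in 2i and at 10.4 and 12.1 in primed ESCs.

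For the Mondo factors and their known targets, 10 of 11 genes were tested, and 3 rose and 2 fell in GKO, 3 rose and 1 fell in DKO, and 7 rose and 2 fell in primed ESCs. Mlx, the shared partner, fell in GKO (-0.42) and DKO (-0.20). Mlxipl, which encodes ChREBP and is named after its values were seen, rose in GKO (0.84, adjusted p = 0.00483 by limma) and DKO (0.58, adjusted p = 0.0301). Its levels were 0.575 and 0.873 TPM in the naïve libraries, 2.18 and 1.97 in the GKO ones and 1.67 and 1.47 in the DKO ones. Mlxip was at 0.12 in GKO and missed the threshold. Tkfc, a fructose-metabolism kinase and known ChREBP target, fell in GKO (-0.42), rose in DKO (0.37) and fell in primed ESCs (-1.22). The transcription factors Bhlhe40 and Tef rose in primed ESCs (1.98 and 0.57). Of the 26 genes whose window held the carbohydrate response element, 16 were tested, Txnip included, and 6 rose and 6 fell in GKO, 5 rose and 5 fell in DKO, and 5 rose and 7 fell in primed ESCs. Their median change was 0.12, -0.06 and -0.11 in turn. Of all tested genes 51.7%, 46.0% and 80.0% were called in these comparisons, and nothing particular to genes with the element was read from the counts. Pklr, counted as risen in GKO and DKO here and among the Mondo targets, reached 1 TPM in those lines only. The search was run with the values of Txnip known.

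In the vesicle traffic of glucose transporters, 18 of 18 genes were tested. In GKO 5 rose and 3 fell, with Lnpep, the aminopeptidase of GLUT4 vesicles, at 0.50, the small GTPase gene Rab10 at -0.50 and the vesicle SNARE gene Vamp2 at -0.45. In DKO 4 rose and 2 fell, with Lnpep at 0.85, Stxbp3 at 0.53 and Myo1c at 0.33. In primed ESCs 5 rose and 8 fell, with the rises led by the sorting receptor gene Sort1 (3.74), Rhoq (1.58) and Rab13 (1.29). In insulin and IGF signalling, 13 of 13 genes were tested, and 6 rose and 4 fell in GKO, 3 rose and 3 fell in DKO, and 11 rose and 2 fell in primed ESCs. Akt1, a kinase by which insulin acts, fell in GKO (-0.71) and DKO (-0.86), and in GKO its relative Akt2 (-0.56) fell as well. Irs2, an insulin receptor substrate, rose in DKO (1.10) and in primed ESCs (1.58), and Pik3ca, a catalytic subunit of PI3K, fell in DKO (-0.29). Grb10, an adaptor that restrains the insulin receptor, rose in primed ESCs (3.32). The median over this list, with Irs1 counted, was 1.36 in primed ESCs and 0.01 in both GKO and DKO.

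**Figure D5:**
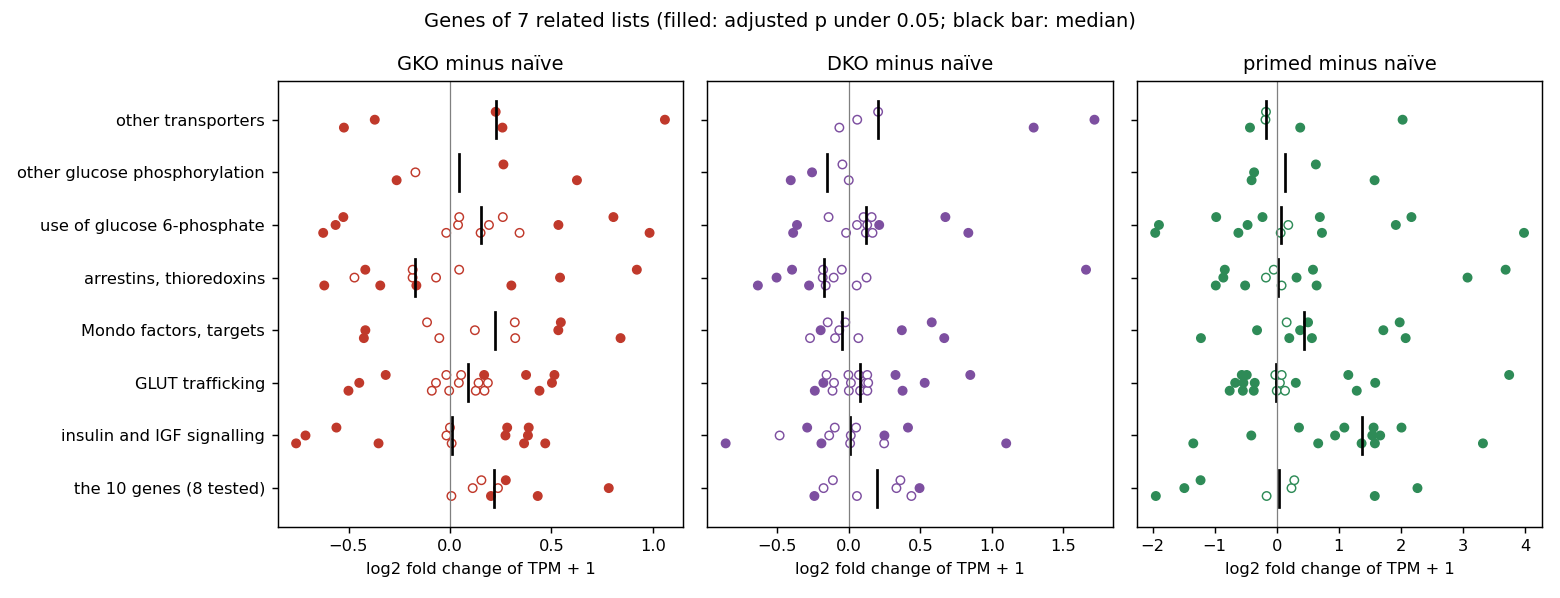
Log2 fold change of TPM + 1 (horizontal axis) of each tested gene of the 7 lists and of the 8 tested members, in GKO, DKO and primed ESCs against naïve ESCs. Filled points passed an adjusted p of 0.05 in limma and black bars are list medians. Each list holds genes on both sides of 0, and the insulin and IGF list stands furthest to the right in primed ESCs, with a median of 1.36.

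The genes closest in pattern to each member were named by Pearson's r of log2(TPM + 1) over the 10 libraries, in which the primed libraries stand apart and weigh most. Closest to Slc2a1 were Ror1 (r = 0.997), Fam163b and Lsp1, and closest to Slc2a3 were Cd164l2 (0.985), Ptprj and Pinx1. Slc2a4 was nearest to Gramd3 (0.988), Aspg and Fmnl2, and Slc2a8 to C9orf72 (0.903), Ccpg1os and Elmo3. Hk1 was nearest to Lad1 (0.958), Tram2 and Aspm, and Hk2 to Mfsd12 (0.998), Slc39a4 and Npepl1. For Txnip they were Slc6a8 (0.996) and Bid, and for Arrdc4 Lsm3 (0.998), Ccdc3 and Dmtn. Over the 8 libraries grown in 2i, r was 0.804 for Slc2a1 with Ror1, 0.853 for Txnip with Slc6a8 and 0.976 for Arrdc4 with Lsm3. Txnip and Arrdc4 had r = 0.980 with each other over all 10 libraries and 0.782 over those 8. These values describe the libraries and carry no test.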

How the data were processed

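The deposited tables hold the TPM of 21853 protein-coding genes, 1 table per library. The authors trimmed reads with Trim Galore 0.6.6, aligned them with STAR (2.7.9a in the submitters' processing notes) and estimated TPM with RSEM 1.3.3. The study's methods name GRCm39 and the processing notes name GRCm38 and GRCh38; they also name different library kits and sequencers, which the deposited TPM do not settle. TPM keep no depth, so no counting interval was given, and where transcripts are alike RSEM shares their reads out by estimation. Lines and replicate numbers were taken from the sample labels, all 10 libraries were used, and the tables held 0 other columns of sample values. No pair of libraries had the same nonzero value in over 0.879% of the 21853 genes.

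From these TPM, log2(TPM + 1) was computed for 12060 genes (those reaching 1 TPM in 2 or more libraries), a scale that understates changes of low genes. They were fitted with limma 3.58.1 in R 4.3.3 in 1 model with a mean for each line, an intensity trend and Benjamini-Hochberg adjustment within each comparison over all 12060 genes, at a threshold of 0.05. The procedure was run on simulated data with independent normal noise and 1 size of shift, placed in some genes of GKO. That shift was larger than any change of the tested members in the knockouts. Shifts along a chromosome and the wider spread of the primed libraries were not simulated. The comparisons of GKO, DKO, AKO and primed ESCs with naïve ESCs share the naïve libraries. Shares are of summed TPM within a gene family. The genes named from the 7 lists were the 3 with the largest called change per list and comparison, with a mean of at least 5 TPM in the higher line and no overlap between libraries. Some genes that the naming rules picked are not reported here. Promoter windows came from RefSeq (GRCm38.p6) for 8 of the 10 members and were placed in GRCm39 by exact match. The members, lists and tests were chosen with earlier results of these data known. Alternatives were another pseudocount, filter and scaling, no intensity trend, a replicate block, only the libraries compared and each library left out. The fit without the primed libraries was added after seeing the data.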

Additional observations from a re-analysis of the deposited data

Results flagged for a closer look

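The following genes of the pathway were singled out because the difference of GKO from naïve ESCs was unlike that of DKO from AKO, by the interaction term in limma (GKO minus naïve, less DKO minus AKO). AKO and DKO also differed in Prkaa1 (-1.35). Txnip had an interaction of 0.43 (SE 0.13, adjusted p = 0.043) and Arrdc4 of 0.51 (SE 0.09, adjusted p = 0.00331). The Txnip call was lost in 9 of 17 alternatives and that of Arrdc4 in 0 of 17.

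Of the 75 other tested genes of the pathway 19 were called, and 9 of them, picked by the rule for named genes, are given. That rule picks large changes of GKO or DKO from naïve ESCs, and these values also enter the interaction. The 9 were thus chosen towards large interactions, and their size supports nothing further. The glucose 6-phosphatase gene G6pc3 had 0.98 (SE 0.11, adjusted p = 0.000519), having risen in GKO against naïve ESCs (0.26) and fallen in DKO against AKO (-0.71). Tkfc had -0.74 (SE 0.08, adjusted p = 0.000351), with a fall of -0.42 and a rise of 0.32 in turn. Pfkfb1 had 0.92 (SE 0.14, adjusted p = 0.00216) and Txnrd3 0.65 (SE 0.13, adjusted p = 0.00772), both called in GKO and not in DKO against AKO. Pfkm had -0.86 (SE 0.08, adjusted p = 0.000202) and Myo1c -0.35 (SE 0.09, adjusted p = 0.0248), both called in DKO against AKO and not in GKO. Irs2 had -0.74 (SE 0.17, adjusted p = 0.0128), with rises of 0.38 and 1.12. Akt2 had -0.41 (SE 0.07, adjusted p = 0.00392), with falls of -0.56 and -0.15, and Mlx had -0.25 (SE 0.06, adjusted p = 0.0158), with falls of -0.42 and -0.17. With 2 libraries per line no search for single libraries apart from their group was possible. The interaction was called for 25.8% of all tested genes, and causes were not tested.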

How the results depend on the processing

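Over 56 member results, 745 alternative values were computed: 659 kept direction and side of the threshold, 33 lost the call, 31 gained one and 22 changed sign. The cause was not tested. The replicate number did not pair the libraries: the correlation of same-numbered deviations was -0.128 to 0.0780 over 10 pairs of lines, 0 of them over 0.1. With the replicate block no member call changed, and 8 genes were called in AKO instead of 27. That AKO count was also 13 with a pseudocount of 0.1, 17 with a filter at a mean of 5 TPM, 0 with only the libraries compared (limma), 131 without the primed libraries and 1 to 3 with 1 library left out. The count for the interaction, 3116, fell to 1944 to 2400 with 1 library left out. Members called with only the libraries compared, and equally without the primed libraries, were 6 for DKO against AKO (3 in the main fit), 5 for DKO against naïve (2), 6 for GKO against DKO (3) and 4 for the interaction (2, and 1 with no filter or no intensity trend). With 1 library left out they were 1 to 3, 1 to 2, 1 to 2 and 1 to 2 in turn, and 2 to 3 for GKO against naïve (4).

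Signs turned with quantile normalization for Slc2a1 in DKO against AKO (0.047) and Slc2a8 in GKO (-0.014), neither called. Leaving out 1 library gave, against naïve in AKO, -0.0575 to 0.0393 for Arrdc4, -0.102 to 0.121 for Hk1, -0.147 to 0.0179 for Slc2a1, -0.0207 to 0.00606 for Slc2a3, -0.0313 to 0.0857 for Slc2a4 and -0.0147 to 0.0746 for Slc2a8. It gave -0.0374 to 0.0519 for Slc2a8 in GKO, and in primed ESCs -0.180 to 0.742 for Slc2a8 and -0.391 to 0.0626 for Hk1. It gave -0.129 to 0.0350 for Slc2a1 in DKO against AKO, -0.295 to 0.0483 for Slc2a4 in GKO against DKO, and interactions of -0.00551 to 0.0731 for Hk2 and -0.268 to 0.0755 for Slc2a4. With member genes alone in the denominator, Slc2a3 made up 80.7% in GKO and 76.9% in naïve ESCs, Hk1 13.6% and Hk2 86.4% in GKO. Scaling moved the median of all genes by less than 0.1. Having 2 libraries per line and TPM without depth limits the precision.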
